A study of Mus musculus with 20 samples.

Results

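The interleukin 1 family was followed through 9 genes in the lungs of mouse dams: the ligands Il1a, Il1b, Il18 and Il33, the secreted inhibitors Il1rn and Il18bp, and the receptors Il1r1, Il1r2 and Il1rl1. They were found by gene name in the scanner files, which name 8 of the 9. Il33 stands there under the older name 9230117N10Rik and was found through its RefSeq accession. The 9 genes have 15 of the 41174 different probes on the array. Probes were kept if the lung channel was bright enough to be marked well above background by the software in 3 or more of the 5 dams of some group, and 14 of the 15 probes passed, so that all 9 genes were among the 19914 genes tested.

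The animals were 20 female, time-mated, young adult C57BL/6BomTac mice, instilled through the trachea 4 times while pregnant (gestational days 7, 10, 15 and finally 18). The 5 Control dams received the vehicle, Milli Q water. The 5 Low dams received a total of 11 µg of Printex 90, a carbon black made of nanosized particles, the 5 Medium dams 54 µg and the 5 High dams 268 µg. All groups had been pregnant and had nursed their litters, and lungs were taken after weaning, 26 to 27 days after exposure.

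Interleukin 1 alpha and beta signal through the receptor Il1r1, and Il1rn encodes the receptor antagonist, which occupies Il1r1 without signalling. Il1r2 is a decoy receptor that binds interleukin 1 and does not signal. Interleukin 33 is held in the nuclei of epithelial and other barrier cells and acts, once released, on the receptor ST2, the product of Il1rl1, while interleukin 18 is neutralised by the binding protein Il18bp. Interleukins 1 beta and 18 are made as precursors and cut by caspase 1, a step that transcript levels do not show.

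Every value below is the authors' deposited log2 ratio of a dam's lung RNA, labelled with Cy5, over a common mouse reference RNA, labelled with Cy3. A difference of 1 between groups is a 2-fold change. Ratios of different probes were not set against each other, because the reference holds each transcript at its own level. The median Cy5 signal of an array was 161.5 to 246.5 intensity units over a local background of 80 to 83, and 64.0 to 78.3% of features lay well above background. No background was subtracted in the deposited ratios, which makes differences of dim probes smaller. Each group had a fixed position on slides 1 to 5, so position and group cannot be told apart there. Slide 6 held only Medium dams 49 and 50. All 8 lung identity markers, such as Sftpc and Scgb1a1, were measured, and their mean log2 ratio was 3.62 to 4.61 over the 20 lungs. Cardiac muscle markers differed from lung to lung, with a mean log2 ratio of 0.47 to 3.31. In whole lung, more cells of a type and more RNA per cell cannot be told apart.

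The probes are 60 bases long. For 5 genes the scanner files place a probe on a genome stretch longer than the probe itself, so that the probe reads across an exon junction. These 5 are shown because each reads a junction of a spliced transcript, with positions on mouse build mm7.
Il1rn, chr2:24354826-24355846: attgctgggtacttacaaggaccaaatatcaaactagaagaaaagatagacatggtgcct
Il1a, chr2:129043842-129045576: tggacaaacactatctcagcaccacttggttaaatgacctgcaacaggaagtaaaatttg
Il18, chr9:50557947-50560075: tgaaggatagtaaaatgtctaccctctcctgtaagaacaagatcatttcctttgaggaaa
Il1r2, chr1:40351196-40354143: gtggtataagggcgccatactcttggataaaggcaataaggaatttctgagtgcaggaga
Il1rl1, chr1:40680766-40681628: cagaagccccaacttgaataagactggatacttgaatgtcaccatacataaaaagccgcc
Only the Il18 probe of these is the brightest kept probe of its gene and carries its values below. The Il1rl1 probe was well above background on only 1 Low and 1 Control array and was not tested. The brightest Il1rn probe lies at chr2:24357916-24357975 of mm7, downstream of the junction probe.

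Of the 9 genes, Il1rn was the only member that passed the test at any dose against Control, and it did so at the high dose. The test was limma's moderated test over all 20 arrays, two-sided, with Benjamini-Hochberg adjustment over the 19914 genes, and a gene was called at an adjusted p under 0.05. Against Control, 0 of 9 members were called at the low dose, with 0.00502% of all genes tested, and 0 of 9 at the medium dose, also with 0.00502%. At the high dose 1 of 9 was called, where 1.04% of all genes were called, 0.507% higher and 0.532% lower. That background rested in part on single dams: 207 genes were called, against 77 without High dam 62, 111 without High dam 63, and 128, 80 and 101 without Control dams 7, 15 and 18. At an unadjusted p under 0.05, limma gave 2, 2 and 3 of the 9 members for Low, Medium and High against Control, where 7.5%, 14.1% and 16.5% of all genes reached it. For 0 of the 9 members did the 5 exposed dams lie wholly apart from the Control dams at any dose, where 1.47%, 3.23% and 3.5% of all genes did so in Low, Medium and High dams. The 3 comparisons share the same 5 Control dams. The median of the 9 differences at the high dose was -0.036, against -0.009 over all genes tested.

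**Figure D1:**
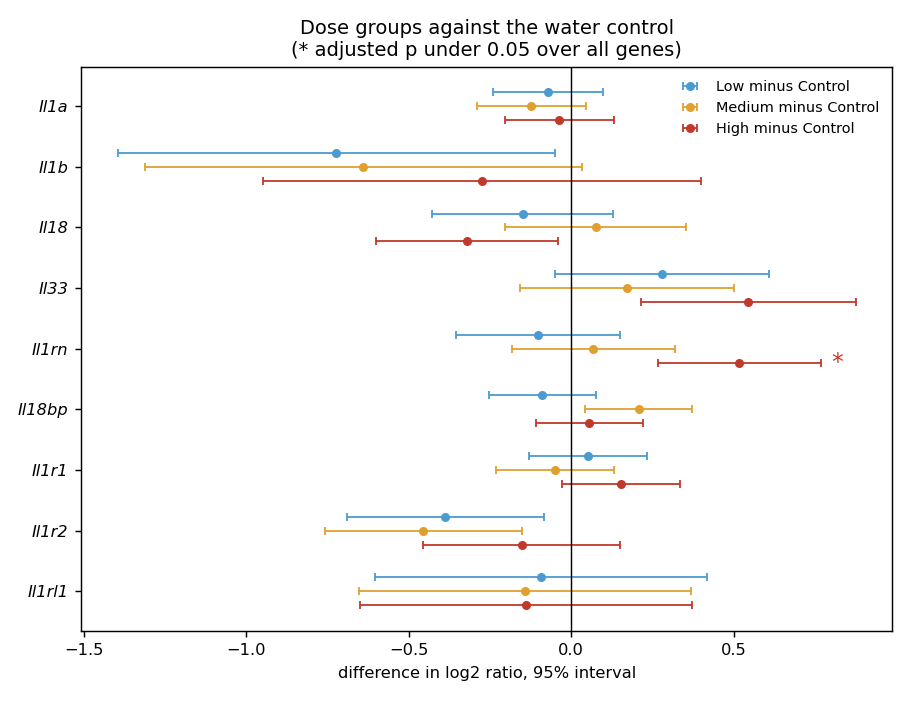
Differences in log2 ratio of Low (blue), Medium (amber) and High (red) dams against Control, 5 dams each, for the 9 members. Points are the fitted differences, bars their 95% intervals, and the star marks the member with an adjusted p under 0.05 over all genes. Il1rn at the high dose, at 0.52, is the only starred value.

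Il1rn, the receptor antagonist, rose at the high dose. The log2 ratios were 0.29, 0.95, 0.94, 0.66 and 0.63 in High dams 60, 62, 63, 64 and 65, against 0.089, 0.15, 0.39, -0.097 and 0.36 in Control dams 4, 7, 14, 15 and 18. Of the High dams, 4 lay above every Control dam, while High dam 60 lay below Control dams 14 and 18, so the groups overlapped. The mean was 0.69 ± 0.27 at the high dose and 0.18 ± 0.20 in Control (SD, n = 5 each), a log2 difference of 0.52 ± 0.12 (SE), or 1.43-fold, with an adjusted p of 0.0426 in limma.

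The other doses of Il1rn stood near Control. Low dams 25, 27, 28, 31 and 36 had log2 ratios of -0.038, -0.039, 0.20, 0.19 and 0.063. Medium dams 46 to 50 had -0.089, 0.40, 0.26, 0.32 and 0.34. Relative to Control the log2 difference was -0.10 (95% interval -0.35 to 0.15) at the low dose and 0.068 (-0.18 to 0.32) at the medium dose, neither of which passed. The 5 High dams all lay above the 5 Low dams, with a log2 difference of 0.62 ± 0.12 (SE) and an adjusted p of 0.0428 in limma, where 0.146% of all genes were called and 1.96% had groups that did not overlap. This call was lost, at adjusted p of 0.0539 to 0.146 in limma, when any Low dam, High dams 62, 63 or 65, Medium dams 48, 49 or 50 or Control dams 7 or 18 was left out, and when only High and Low dams were fitted (0.124). Between High and Medium dams the difference was 0.45 ± 0.12 (SE), with an adjusted p of 0.196 in limma, where 0.11% of all genes were called. A trend over the 4 dose steps gave Il1rn a slope of 0.17 ± 0.045 (SE) per step and an adjusted p of 0.058 in limma, where 1.43% of all genes were called.

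Within slides the sign of the Il1rn difference was the same throughout. On slides 1 to 5, the High dam exceeded the Control dam of its own slide by 0.20, 0.81, 0.55, 0.75 and 0.28 on the log2 scale. With the slide as a block the adjusted p of High against Control was 0.0149. The call was close to the threshold: it was lost, at adjusted p of 0.0505 to 0.123 in limma, when any of High dams 62, 63, 64 and 65, Control dams 4, 7, 15 and 18, Low dams 25 and 31 or Medium dam 48 was left out. It was also lost when only High and Control dams were fitted (adjusted p 0.128) and with the scanner software's background-subtracted ratio, in which the difference was larger, at 0.70 ± 0.18 (SE), with an adjusted p of 0.243.

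**Figure D2:**
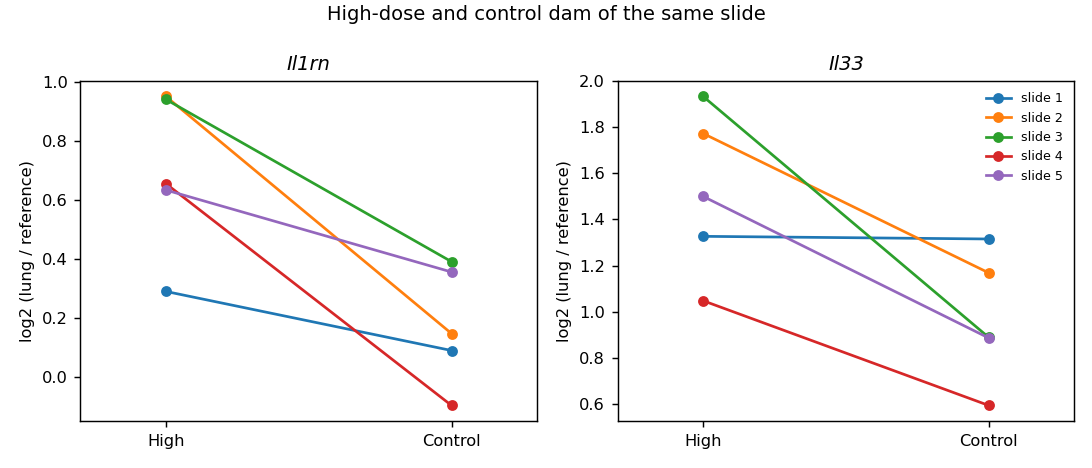
Log2 ratio of Il1rn (left) and Il33 (right) in the High and the Control dam of each of slides 1 to 5, joined by a line per slide. All 5 lines of each gene run downward from High to Control, the shallowest for Il33 on slide 1, where the difference was 0.012.

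The junction probe of Il1rn gave a smaller difference. It was dim, with a median Cy5 signal of 100.5 over a background of 81.8 intensity units, and well above background on 4 High, 2 Medium, 0 Low and 3 Control arrays. Its log2 ratios were 0.30, 0.17, 0.20, 0.060 and -0.045 in High dams 60, 62, 63, 64 and 65, against -0.030, -0.28, -0.066, -0.18 and -0.089 in Control dams 4, 7, 14, 15 and 18. The difference was 0.27 ± 0.074 (SE), with an adjusted p of 0.0759 in limma. The order of the High dams differed between the probes: dam 60 was the lowest on the brighter probe and the highest on the junction probe. Over the 20 arrays, with each group's mean subtracted, the 2 probes had a Pearson r of -0.16. When the probes of each gene were averaged, the Il1rn difference was 0.39 ± 0.069 (SE), with an adjusted p of 0.00946 in limma. That average includes the dim probe, and its smaller SE comes from 2 probes that did not follow each other from dam to dam.

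RefSeq (GRCm38.p6) gives Il1rn several transcription starts, and the 250 bases before the start that lies farthest upstream are shown because Il1rn is the member that was called. The motif TGANTCA, bound by AP-1 factors downstream of interleukin 1 and other signals, is in capitals.
Il1rn, chr2:24336610-24336859, + strand: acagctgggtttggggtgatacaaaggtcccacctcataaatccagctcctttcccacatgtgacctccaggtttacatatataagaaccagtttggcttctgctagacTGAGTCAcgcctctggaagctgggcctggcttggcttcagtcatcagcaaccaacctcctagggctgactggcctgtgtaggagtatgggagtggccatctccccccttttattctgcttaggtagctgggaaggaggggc
The motif begins 141 bases before the start. Searched on both strands, it was in 2 of the 14 windows of the 9 genes, the Il1rn window shown and a window of Il1a, and in 6.75% of the 32851 mouse windows of this length. The windows of the other Il1rn starts did not hold it, and which start the measured transcripts used was not tested. The NF-κB consensus was in 1 of the 14 windows, of Il1r1, and in 7.25% of all windows.

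Il33, an alarmin of barrier cells, had the largest difference of the 9 genes at the high dose, but it did not pass the test. The log2 ratios were 1.33, 1.77, 1.93, 1.05 and 1.50 in High dams 60, 62, 63, 64 and 65, against 1.32, 1.17, 0.89, 0.59 and 0.89 in Control dams 4, 7, 14, 15 and 18. High dam 64 lay below Control dams 4 and 7, and the other 4 High dams lay above every Control dam, dam 60 by only 0.012. The mean was 1.52 ± 0.35 at the high dose and 0.97 ± 0.28 in Control (SD, n = 5 each), a log2 difference of 0.55 ± 0.16 (SE), with an adjusted p of 0.0937 in limma. Within slides 1 to 5 the difference was positive on all 5, between 0.012 and 1.04.

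Without High dam 64 the Il33 difference was 0.66 and passed, at an adjusted p of 0.0412 in limma; it did not pass in the other 35 alternatives, where its adjusted p reached 0.547. Relative to Control the difference was 0.28 (95% interval -0.051 to 0.61) at the low dose and 0.17 (-0.16 to 0.50) at the medium dose. The Low dams had the narrowest spread, 1.15 to 1.40. Il33 was a bright probe, with a median Cy5 signal of 5945 intensity units.

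Il18, whose product drives interferon gamma production together with interleukin 12, had the lowest difference at the high dose, and it did not pass. The log2 ratios were 1.47, 0.76, 0.75, 1.14 and 1.24 in High dams 60, 62, 63, 64 and 65, against 1.59, 1.24, 1.59, 1.13 and 1.41 in Control dams 4, 7, 14, 15 and 18. High dams 62 and 63, which had the highest Il1rn and Il33, had the lowest Il18 of all 20 dams. The log2 difference was -0.32 ± 0.13 (SE), with an adjusted p of 0.233 in limma. At the low dose it was -0.15 (95% interval -0.43 to 0.13) and at the medium dose 0.075 (-0.20 to 0.35).

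Il1b, the ligand made chiefly by activated myeloid cells, varied widely between dams of a group, and no difference between groups passed. High dams 60, 62, 63, 64 and 65 had log2 ratios of 2.72, 2.72, 3.35, 3.54 and 1.83, and the mean was 2.83 ± 0.67, against 3.11 ± 0.38 in Control dams, which ranged from 2.47 to 3.44 (SD, n = 5 each). The highest value of the 20 dams and the second lowest both stood in the high-dose group. Its SD within groups was 0.56, larger than that of 98.9% of the genes tested, whose median was 0.12. The log2 difference from Control was -0.72 (95% interval -1.40 to -0.050) in Low, -0.64 (-1.31 to 0.033) in Medium and -0.27 (-0.95 to 0.40) in High dams, with adjusted p of 0.648, 0.377 and 0.728 in limma. Within slides, the Low dam was below the Control dam on 5 of 5 slides, the Medium dam on 3 of 3 and the High dam on 3 of 5.

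Il1a, the ligand that is also active as a precursor, was dim and showed no called difference. Its log2 ratios were 0.26 to 0.59 in High dams, against 0.30 to 0.48 in Control dams, with a difference of -0.036 (95% interval -0.21 to 0.13). The junction probe of Il1a gave 0.14 ± 0.11 (SE), so the probes had opposite signs and neither passed.

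**Figure D3:**
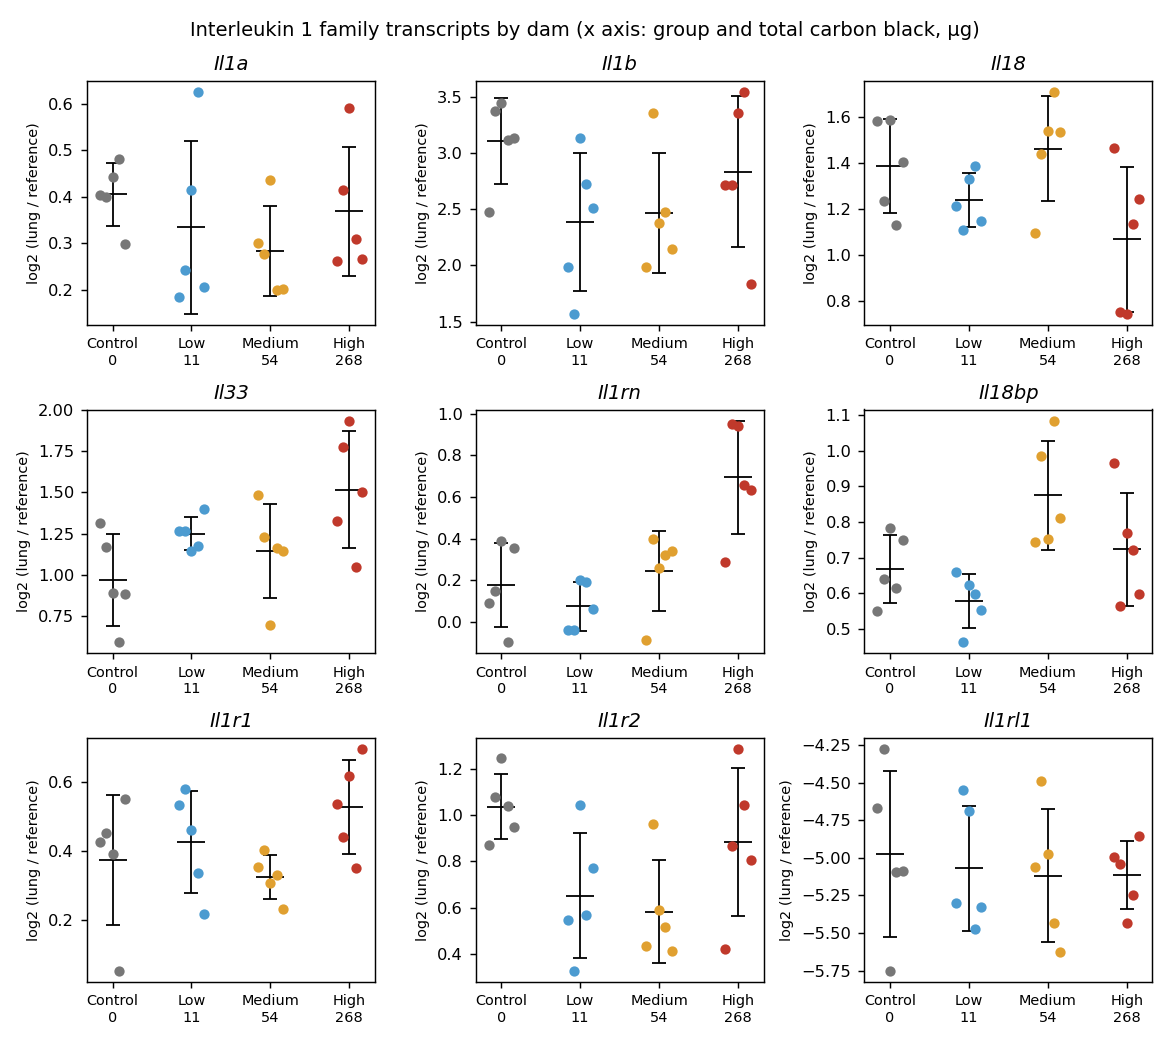
Log2 ratio of lung over reference for each dam and each of the 9 genes, by group and total dose in µg. Points are dams, the bar is the mean and the whiskers are 1 SD (n = 5 per group). High dams sit highest for Il1rn, with 4 of 5 above all other dams, while the groups interleave for Il1b and Il1rl1.

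Il1r2, the decoy receptor, had its lowest means in the Low and Medium dams. The log2 ratios were 0.87, 1.08, 1.25, 1.04 and 0.95 in Control dams 4, 7, 14, 15 and 18. They were 0.54, 0.33, 1.04, 0.57 and 0.77 in Low dams 25, 27, 28, 31 and 36, and 0.43, 0.96, 0.59, 0.51 and 0.41 in Medium dams 46 to 50. High dams ranged from 0.42 to 1.29. Of the Low and Medium dams, 4 of 5 each lay below every Control dam, Low dam 28 and Medium dam 47 being the exceptions. The log2 difference from Control was -0.39 ± 0.15 in Low, -0.46 ± 0.15 in Medium and -0.15 ± 0.15 in High dams (SE), with adjusted p of 0.617, 0.206 and 0.65 in limma, so none passed. The junction probe of Il1r2 gave -0.14, -0.063 and 0.069 at these doses.

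Il1r1, the signalling receptor, differed from Control by 0.15 (95% interval -0.028 to 0.33) at the high dose, and its log2 ratios were 0.35 to 0.70 in High dams, against 0.054 to 0.55 in Control dams. Il1rl1 was measured by a probe for the transcript of soluble ST2, a decoy for interleukin 33, and by a probe for the membrane receptor. The soluble form's probe read far below the reference in every dam, at log2 ratios of -5.43 to -4.86 in High dams and -5.75 to -4.28 in Control dams, because its median Cy3 signal was 11415 against a Cy5 signal of 723.8 intensity units. Its difference at the high dose was -0.14 (95% interval -0.65 to 0.37), and that of the membrane receptor's probe was -0.043 ± 0.13 (SE). Neither passed, and the interval of the soluble form's probe leaves room for a change in either direction.

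Il18bp, the interleukin 18 inhibitor, had its highest mean in Medium dams, at 0.74, 0.98, 0.75, 1.09 and 0.81 in dams 46 to 50, against 0.66, 0.46, 0.62, 0.60 and 0.55 in Low dams 25, 27, 28, 31 and 36. All Medium dams lay above all Low dams, with a log2 difference of 0.30 ± 0.079 (SE), but the adjusted p was 0.997 in limma, where 0 genes were called, 749 (3.76%) reached an unadjusted p under 0.05 and 0.663% of genes had groups that did not overlap. Relative to Control the difference was 0.21 (95% interval 0.043 to 0.37) in Medium and 0.056 (-0.11 to 0.22) in High dams. The intervals are not adjusted for the number of genes, and the adjusted p were 0.267 and 0.785 in limma, so neither passed. The other Il18bp probe gave 0.042 and -0.048. On that probe the Medium dams, at 0.27 to 0.65, overlapped the Low dams, at 0.26 to 0.47.

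Among the genes around the family, those known to be induced by interleukin 1 held most of the called differences at the high dose. Of 22 listed genes 17 were tested, and 7 rose and 0 fell at the high dose, where 0.507% of all genes were called higher and 0.532% lower. The median log2 difference was 0.51, against -0.009 over all genes tested. Cxcl5, a neutrophil-attracting chemokine, rose by 3.01 ± 0.38 (SE), and Saa3, an acute phase protein, by 2.22 ± 0.44. Ccl7, a monocyte-attracting chemokine, rose by 1.26 ± 0.24 and Ccl20, which attracts lymphocytes and dendritic cells, by 0.46 ± 0.092. The adjusted p of these 4 were 0.0014, 0.0182, 0.0152 and 0.0193 in limma. Lcn2, Cxcl3 and Csf2, named after their values were seen, also rose, by 1.08, 0.57 and 0.56. At the medium and low doses 0 of the 17 were called, where 0.00502% of all genes were called at each. At that share a count of 0 does not set the list apart. Many signals other than interleukin 1 induce these genes, and part of the list was known to respond in these lungs when it was drawn up.

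Called genes of the machinery upstream and downstream of the receptors were counted beside the share of all genes called. That share was 1.04% at the high dose and 0.00502% at each of the lower doses. At these shares a count of 0 does not set a short list apart. Of 18 inflammasome and processing genes 15 were tested and 0 were called at any dose. At the high dose only 6 of the 15 differences were positive, and the median was -0.043, against -0.009 over all genes tested. The 3 genes of this list with the smallest p in High dams were all among the positive ones. They were Nek7, a kinase that binds Nlrp3, at 0.27 ± 0.10, the neutrophil protease Prtn3 at 0.16 ± 0.061, and Pycard, the inflammasome adaptor, at 0.21 ± 0.11. None of them passed. Casp1, which cuts the precursors and was named after its value was seen, differed by -0.046 ± 0.097 (SE). Of 26 receptor signalling genes 25 were tested, and only Tnfaip3, which encodes the NF-κB inhibitor A20, was called, at 0.39 ± 0.084 (SE) with an adjusted p of 0.0288 in limma at the high dose. Of the 12 other ligands and receptors of the family 7 were tested and 0 were called. All 7 differences were negative at the high dose, from -0.25 for Il1f9 to -0.018 for Il18rap, with -0.15 for Il1f8 and -0.15 for the interleukin 18 receptor chain Il18r1. This was not particular to the high dose: only 1 of the 7 was positive at the low dose and 1 at the medium dose. The medians were -0.18 at the low, -0.12 at the medium and -0.080 at the high dose, all against the same Control dams. Of 17 genes induced by interleukins 33 and 18, 14 were tested, and 11 of the 14 differences were positive at the high dose. The median of the 14 was 0.17, against -0.009 over all genes tested. Only Ifng was called in this list, and it fell by 0.55 ± 0.11 (SE) at the high dose, with an adjusted p of 0.0207 in limma.

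**Figure D4:**
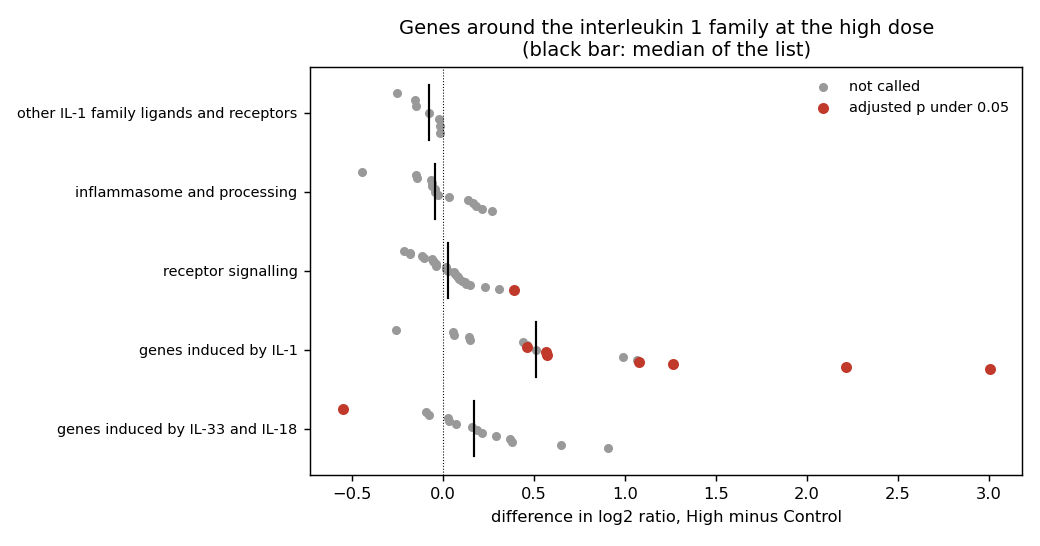
Difference in log2 ratio between High and Control dams for each tested gene of 5 lists around the interleukin 1 family; red points had an adjusted p under 0.05 over all genes, grey points did not, and the black bar is the list's median. Of the 9 red points, 7 belong to the genes induced by interleukin 1, and the red point left of 0 is Ifng.

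Il1rn, Il1b and Il1r2 moved from dam to dam with marker lists of monocytes, macrophages or neutrophils. The lists do not show where such cells came from. The 9 measured markers of monocytes and recruited macrophages had a mean log2 ratio of 0.53 ± 0.29 (range 0.11 to 0.89) in High dams and 0.14 ± 0.081 (0.052 to 0.26) in Control dams (SD, n = 5 each). Of these 9, 2 rose at the high dose: Trem2 by 0.96 ± 0.13 and Mmp12 by 0.98 ± 0.20 (SE). Over the 20 arrays, with each group's mean subtracted, Il1rn had a Pearson r of 0.70 with the mean of that list. It also had an r of 0.61 with the 6 measured markers of group 2 innate lymphoid and Th2 cells. The mean of these was 0.38 ± 0.10 in High and 0.36 ± 0.079 in Control dams (SD, n = 5 each). The genes closest to Il1rn were Clec5a, Lilrb4a and Serpina3f, with r of 0.83, 0.82 and 0.82 among 15609 genes. The r of Il1rn was -0.67 with the cardiac muscle list, whose mean log2 ratio was 2.44 ± 0.70 in High dams and 2.30 ± 1.02 in Control dams (SD, n = 5 each). The 6 B and plasma cell markers, of which 2 rose at the high dose, had a mean log2 ratio of -0.062 ± 0.39 (range -0.64 to 0.39) in High dams and -0.53 ± 0.18 (-0.74 to -0.31) in Control dams, and Il1rn had an r of -0.0078 with that list. The part of these cells in the Il1rn difference was not tested.

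Il1b and Il1r2 correlated with neutrophil markers. The 9 measured neutrophil markers had a mean log2 ratio of 2.83 ± 0.40 (range 2.55 to 3.52) in Control dams, 2.38 ± 0.25 (2.07 to 2.77) in Low, 2.35 ± 0.37 (2.07 to 2.96) in Medium and 2.35 ± 0.25 (2.03 to 2.71) in High dams (SD, n = 5 each). Of these 9, Camp, a granule protein of maturing neutrophils, was called at the high dose, and it fell by 1.33 ± 0.30 (SE). With group means subtracted, r with the list was 0.75 for Il1b and 0.66 for Il1r2, and 0.76 between Il1b and Il1r2. With the monocyte and recruited macrophage list, r was 0.61 for Il1r2 and 0.27 for Il1b. The gene closest to Il1b was S100a8, a neutrophil calgranulin, at r = 0.90. The part of these cells in the values of Il1b and Il1r2 was not tested.

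**Figure D5:**
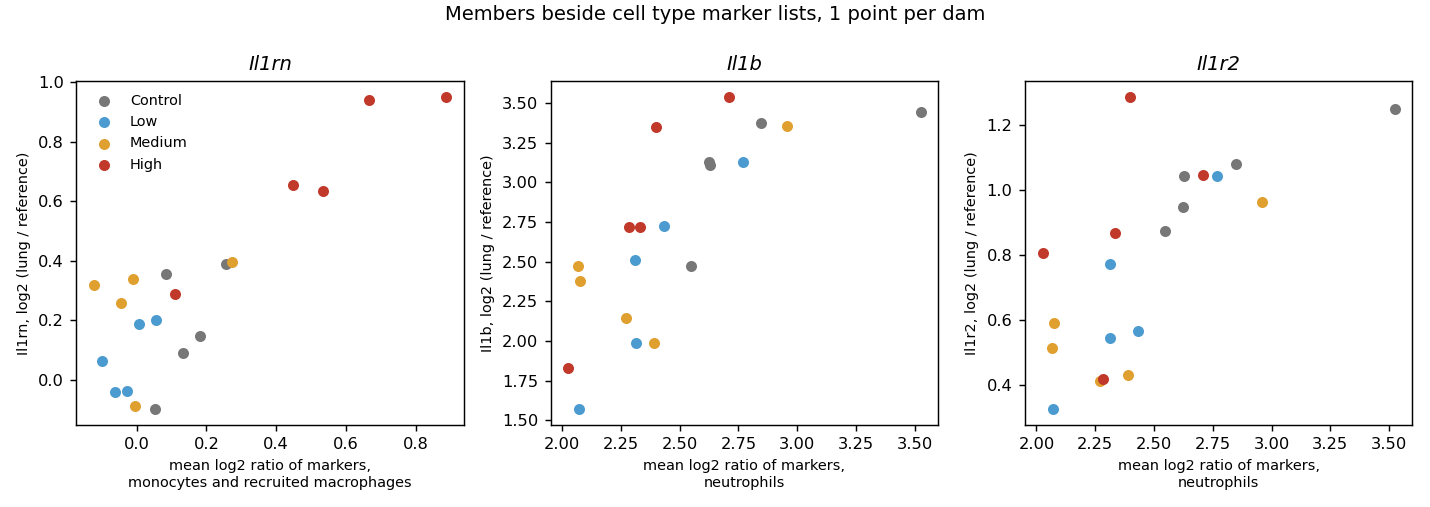
Log2 ratio of Il1rn, Il1b and Il1r2 in each dam against the mean log2 ratio of a marker list, 1 point per dam, coloured by group. In the left panel 4 High dams stand apart at the upper right, and in the middle and right panels dams of all groups with more neutrophil marker signal tend to have higher values.

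Other members had other companions. Il33 was closest to Cd14, a monocyte receptor for bacterial products, at r = 0.83. Il1r1 was closest to Col3a1, a fibrillar collagen, at 0.90, and Il18 to Cyb561a3 at 0.87. The soluble ST2 probe of Il1rl1 was closest to Slc7a5, Fosl1 and Grem1, at 0.96, 0.96 and 0.95, and had r of -0.74 with the lung identity markers. That value was not particular to this list: r was -0.74 with alveolar type 2, -0.70 with alveolar macrophage and -0.69 with endothelium markers. Without subtraction of group means, the probe had r of -0.56 with each array's slope on the mean of the other arrays. That r was -0.57 for Il33, -0.52 for Il1r1 and -0.45 for the brighter Il1rn probe. It was -0.070 to 0.37 for the brightest kept probes of the other members. The slopes were 0.938 to 1.03 in High dams and 0.963 to 1.05 in Control dams. The source of these correlations was not tested. Il1a was closest to Zkscan6 at 0.81 and Il1r2 to Nt5c3 at 0.84. With the group 2 innate lymphoid and Th2 list, the dim Il1a probe had an r of 0.74. These correlations describe 20 arrays that share a reference, and the genes named had the highest r of the 15609 compared.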

How the data were processed

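Lung RNA of 20 dams was hybridised, each on its own two-colour Agilent 4x44K array, with the lung in Cy5 and a universal reference RNA in Cy3 and no dye swap, per the labels' protocols. The authors deposited Feature Extraction spot files with signals and backgrounds in intensity units and a log10 ratio, and a value table of log2 ratios, made by a normalisation not given in the sources used here. Set against the spots, the deposited log2 values followed the ratio with no background subtracted (r 0.962 to 0.993 over features) as lung over reference. Per the file headers, software 9.5.1.1 with build mm7 was used for 18 arrays and 10.1.1.1 with mm8 for 2.

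The deposited log2 values were tested, without spots marked as outliers. Spots of a probe were averaged, and the brightest kept probe, with a value on at least 16 arrays, stood for its gene. Probes were named through RefSeq accessions, symbols or synonyms (GRCm38.p6, names only). limma 3.58.1 in R 4.3.3 fitted 1 model over the 4 groups, with two-sided tests and Benjamini-Hochberg adjustment per comparison at 0.05. The fit was checked on simulated data. The number of arrays limits the precision. Scanner intensities were the starting point in alternatives only, since normexp (offset 50) compressed the ratios of Low dam 27: its slope on the mean of the arrays was 0.681, against 0.962 to 1.06 for the others and 0.938 to 1.05 over all 20 arrays in the deposited values. All members are named. Of each gene list, up to 4 called genes with the smallest p are named, or 3 where none was called, and for likeness up to 3 genes of highest r. Members and lists were chosen with earlier results of these data known.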

Additional observations from a re-analysis of the deposited data

Results flagged for a closer look

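Of the 36 sets of 5 dams (9 genes in 4 groups), 1 held a dam that stood far from the others of its group. This was Il1rn in Medium dam 46, whose log2 ratio was -0.089 while the other 4 Medium dams lay between 0.26 and 0.40; the gap to the nearest was 0.717 of the group's range, above Dixon's limit of 0.71 for 5 values. Chance marks about 1 in 20 such sets. Without this dam the trend of Il1rn over the 4 dose steps was called, at 0.18 per step with an adjusted p of 0.0368 in limma, and the call of High against Control remained, at 0.0306.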

How the results depend on the processing

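Of 2259 member results under alternatives, 2162 kept their sign and their side of the threshold, 34 lost a call and 8 gained 1. No called difference changed sign, and 55 uncalled differences did. Most of the 2259 had no call to lose. The lost calls were all of Il1rn, in 17 of 36 alternatives at High against Control and 17 of 36 at High against Low. The count of members called was 1 at High against Control and was 0 with normexp, with normexp refitted for 1 array, with the software's ratio, with Cy5 alone, without the slide 6 arrays and with only 2 groups fitted. The Il1rn log2 difference there was 0.39 to 0.70 in all alternatives, and its adjusted p 0.00732 to 0.369. At High against Low the count of 1 was 0 with the software's ratio, without a filter on dim probes, without the slide 6 arrays and with only 2 groups. At High against Medium the count of 0 was 1 with the mean of a gene's probes, and for the trend it was 1 with that mean and with the slide as a block; each was Il1rn. Leaving out each dam gave counts from 0 to 1 at High against Control, High against Low, High against Medium and the trend, and 0 in each of Medium against Control, Low against Control and Medium against Low. At High against Low the call was lost without High dams 62, 63 or 65, Medium dams 48, 49 or 50, any Low dam, or Control dams 7 or 18. The calls over all genes at High against Control, 207 in the deposited values, were 15 with normexp, 61 with it refitted, 9 with the software's ratio, 19 with Cy5 alone, 617 with the slide as a block and 21 with only 2 groups. The causes of these differences were not tested. No paired analysis was possible because no replicate number is shared between groups; dams of the same slide were set against each other instead, and slide was fitted as a block. Dim probes (Il1a, Il1r2 and the Il1rn junction probe) limit what their differences show.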
